A study of Mus musculus with 14 samples.

Results

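The 84 genes described here encode the proteins of the cytosolic ribosome and their close paralogues. They were chosen by name: every protein-coding gene of the count table whose symbol starts with Rpl or Rps followed by a number, together with the stalk genes Rplp0, Rplp1 and Rplp2 and with Rpsa, while pseudogenes and the Rps6k kinases were left out. No measured value entered this rule, but the set was chosen with earlier results of these data known. The 84 members stand among 55416 genes of the table; 52 encode proteins of the large subunit and 32 of the small subunit, and 7 of the 84 are paralogues of another member. RNA sequencing had been done on 14 libraries from 3 mouse cell lines, all from hybrids between Mus molossinus and Mus musculus. The epiblast stem cell line (EpiSC) carries a Tsix deletion, written XmolXmus-ΔTsix in the labels, and had 2 libraries from cells treated with STM2457 and 2 from cells given DMSO. The trophectoderm stem cell line (TSC), wild type, had 2 libraries with STM2457 and 2 with DMSO, and the extraembryonic endoderm line (XEN), wild type, had 3 libraries with STM2457 and 3 with DMSO. STM2457 blocks the catalytic site of METTL3, through which messenger RNA receives its N6-methyladenosine (m6A), and was used at 50 µM for 12 h. The lines grew in different media (serum replacement with Fgf2 and Activin A for EpiSC, conditioned medium with serum and Fgf4 for TSC, serum alone for XEN), so line, medium and genotype go together in every comparison of lines. The labels do not say that libraries of a group came from separate cultures, so p-values measure the spread between these libraries, which may be technical.

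Each ribosomal protein is made in step with the others, since a subunit needs nearly all of them to be complete, and most members are therefore expressed at high levels in every dividing cell. Their messenger RNAs begin with a run of pyrimidines, the terminal oligopyrimidine (TOP) motif, through which the kinase mTORC1 and the RNA-binding protein LARP1 control their translation and stability. In mammals m6A tends to lie in long internal exons and near stop codons, and is sparse close to exon junctions.

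The sequence around the annotated start carries both the promoter and the first bases of the TOP motif, and is shown for 3 members that passed the test for STM2457 (Rps27l, Rpl15 and Rpl13a) and for Rpl28 and Rps6, which stood among the members of largest difference between TSC and XEN. Each line gives 40 bases before the start and the first 20 bases of the transcript, from the RefSeq table for GRCm38.p6, read 5′ to 3′ on the gene's strand. The longest run of C and T is in capitals, or the first of them where runs tie in length. Rps27l lies on the plus strand at chr9:66946046-66946105, Rpl15 on the minus strand at chr14:18270967-18271026, Rpl13a on the minus strand at chr7:45128726-45128785, Rpl28 on the plus strand at chr7:4792925-4792984 and Rps6 on the minus strand at chr4:86857348-86857407.
Rps27l: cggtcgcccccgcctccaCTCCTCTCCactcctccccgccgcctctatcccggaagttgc
Rpl15: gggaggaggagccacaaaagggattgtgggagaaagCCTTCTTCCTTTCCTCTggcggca
Rpl13a: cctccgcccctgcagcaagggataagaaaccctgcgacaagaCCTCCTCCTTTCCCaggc
Rpl28: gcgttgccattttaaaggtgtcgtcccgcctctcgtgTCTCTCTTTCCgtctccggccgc
Rps6: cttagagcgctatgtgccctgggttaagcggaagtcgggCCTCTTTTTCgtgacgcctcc
The run crossed the annotated start in Rpl15 (17 bases), Rpl28 (11 bases) and Rps6 (10 bases) and began just after it in Rpl13a (14 bases). In Rps27l the marked run (9 bases) and another of equal length, left in lower case, lay wholly before the annotated start. The RefSeq table held 64 of the 84 members. A run of at least 8 pyrimidines within 20 bases of a listed start was present in 30 of these 64 (46.9%), against 18.4% of all 27025 genes of the table. On the opposite strand, which reads as a run of purines, it was present in 5 of 64 (7.81%), against 20.2% of all genes. CCGGAAG, the core bound by ETS factors, was found on either strand of the 300 bases around a start in 26 of 64 members (40.6%), against 9.93% of all genes, and GGGCGG, the GC box, in 40 of 64 (62.5%), against 38.2%. These matches describe letters in a window and no binding was measured.

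Libraries held 18640099 to 21097380 counts in EpiSC, 17909934 to 20354242 in TSC and 6826496 to 10024628 in XEN. The lines expressed their own markers: 7 XEN markers summed to between 14983 and 18292 CPM (library-scaled counts, by TMM) in XEN libraries and to at most 47.5 CPM elsewhere, 7 TSC markers summed to at least 1753 CPM in TSC and at most 185 CPM elsewhere, and 7 EpiSC markers to 1065 to 1326 CPM in EpiSC, 467 to 507 CPM in TSC and 130 to 170 CPM in XEN. In TSC Pou5f1 was at 0, and in XEN Tfap2c, Esrrb, Sox2, Fgf5, Nodal and Otx2 were at 0. Within the EpiSC list Sox2 was higher in TSC (268.5 to 285.5 CPM) than in EpiSC (71.6 to 83.7 CPM). Dnmt3b had 187.5 to 221.9 CPM in EpiSC, 195.4 to 219.6 CPM in TSC and 129.8 to 169.6 CPM in XEN. Fibroblast markers summed to 41.6 to 55.0 CPM in EpiSC, 3.14 to 4.24 CPM in TSC and at most 0.971 CPM in XEN. The XEN libraries differed from the others in make-up: mitochondrial ribosomal RNA took 12.02% to 16.01% of their counts, against 0.0366% to 0.0505% in EpiSC and TSC, and histone genes took 0.432% to 0.648%, against 0.00296% to 0.00617%. Within XEN, DMSO replicate 2 stood apart in the members themselves, with the lowest share of counts of all 14 libraries.

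The members took 6.56% and 6.21% of all counts in STM2457-treated EpiSC, against 6.87% and 6.90% in DMSO-treated EpiSC. They took 7.775% and 7.625% in STM2457-treated TSC, against 7.97% and 8.45% in DMSO-treated TSC. They took 3.244%, 3.405% and 3.446% in STM2457-treated XEN, against 3.67%, 2.72% and 3.39% in DMSO-treated XEN. In EpiSC and TSC both treated libraries lay below both DMSO libraries, while in XEN the treated libraries lay within the range of the DMSO libraries. The order of the lines was the same with either treatment, highest in TSC and lowest in XEN. Counted without mitochondrial and ribosomal RNA genes, the DMSO shares averaged 6.97% ± 0.0212 in EpiSC (SD, n = 2), 8.30% ± 0.339 in TSC (SD, n = 2) and 3.88% ± 0.601 in XEN (SD, n = 3). The 2 subunits kept nearly the same proportion, with 1.39 to 1.43 large-subunit counts for each small-subunit count in EpiSC, 1.40 to 1.42 in TSC and 1.29 to 1.425 in XEN. No test was run on these sums. In RNA from whole cultures, fewer cells of a kind and less RNA per cell cannot be told apart.

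**Figure D1:**
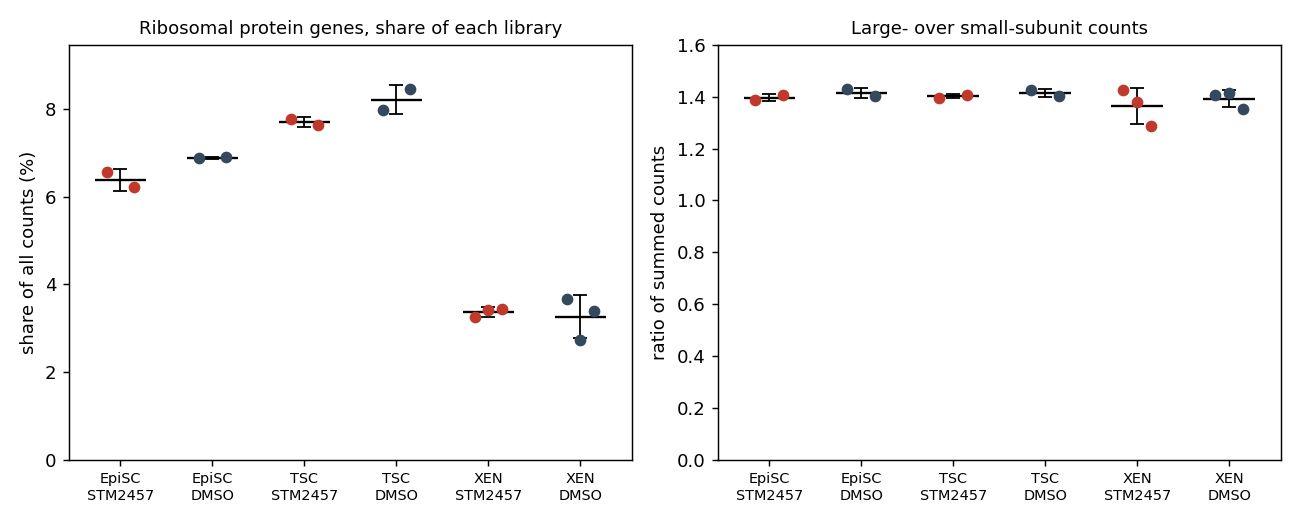
The left panel plots the members' share of all counts (%) and the right panel the ratio of large-subunit to small-subunit counts, each for 6 groups of libraries. Points are libraries and bars are mean ± SD; the EpiSC and TSC libraries given STM2457 sit below their DMSO libraries, and all 6 XEN libraries sit at 3.67% or below, while the ratio stays between 1.29 and 1.43.

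Levels per length differed widely between members. Across members in DMSO they correlated with transcript length at Spearman's rho of −0.39 in EpiSC, −0.34 in TSC and −0.41 in XEN. With the share of 50-base words found in other genes' transcripts rho was 0.42, 0.46 and 0.26. What part length and shared sequence have in the rankings was not tested. In DMSO-treated cells the median of the 77 members that are not paralogues was 859.7 CPM per kilobase of coding transcript in EpiSC, 1021 in TSC and 526 in XEN. Over the union of all annotated exons, a longer measure, the same medians were 398.9, 463.6 and 224.2. Rplp1, an acidic protein of the stalk that recruits elongation factors, was the highest in EpiSC (2388 ± 8.53 CPM per kilobase, SD, n = 2) and in TSC (3035 ± 7.28, n = 2) and second in XEN (1587 ± 327, n = 3). Rpl41, the smallest ribosomal protein, came next in EpiSC at 2381 ± 462, which does not differ from Rplp1 beyond its spread. Rps4x, an X-linked protein of the small subunit, ranked just behind in both stem cell lines, with 2215 ± 48.1 in EpiSC and 2419 ± 209 in TSC. Rpl23a (2988 ± 152) stood between Rplp1 and Rps4x in TSC, and Rps12 (2169 ± 120) and Rps2 (2400 ± 269) came after Rps4x in EpiSC and TSC. Rps29, a zinc-binding protein of the small subunit, led in XEN with 1741 ± 513 CPM per kilobase, and its spread covered the value of Rplp1; Rpl23a (1373 ± 116.5) and Rps2 (1145 ± 194) followed. Over the union of exons or the longest transcript Rplp1 was the highest member in XEN as well.

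At the low end stood paralogues, Rps15a and 4 members whose counts need a caution. Rps15a, with a coding transcript of 5179 bases, had 75.1, 121 and 47.1 CPM per kilobase in DMSO-treated EpiSC, TSC and XEN. Rpl3l, the paralogue of Rpl3 known from muscle, had at most 8 counts in any library, and Rpl39l, a paralogue of Rpl39 known from the testis, had 1 count in all libraries together; these 2 were the only members that did not pass the filter on low counts, which left 82 for testing. Rpl10l, also a paralogue, had 0 to 22 counts per library. The 4 members to treat with caution were Rpl24, Rpl36al, Rps10 and Rpl13a. Per library they had 9 to 32, 5 to 39, 46 to 221 and 418 to 1754 counts in that order, all far fewer than most members. These 4 were also the only members whose coding transcript shares over 20% of its bases with another annotated gene on the same strand in GENCODE M21: 71.5% for Rpl24 (Gm28037), 59.3% for Rpl13a (Gm45713), 53.6% for Rps10 (RPS10-NUDT3) and 26.0% for Rpl36al (Gm49383). The overlapping genes held 0 counts in every library, except Gm49383 with 5 counts in all. These overlaps are those of GRCm38, whereas the reads had been counted on GRCm39. How the counting treated the shared part, and its part in the low counts of these 4 members, was not tested.

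**Figure D2:**
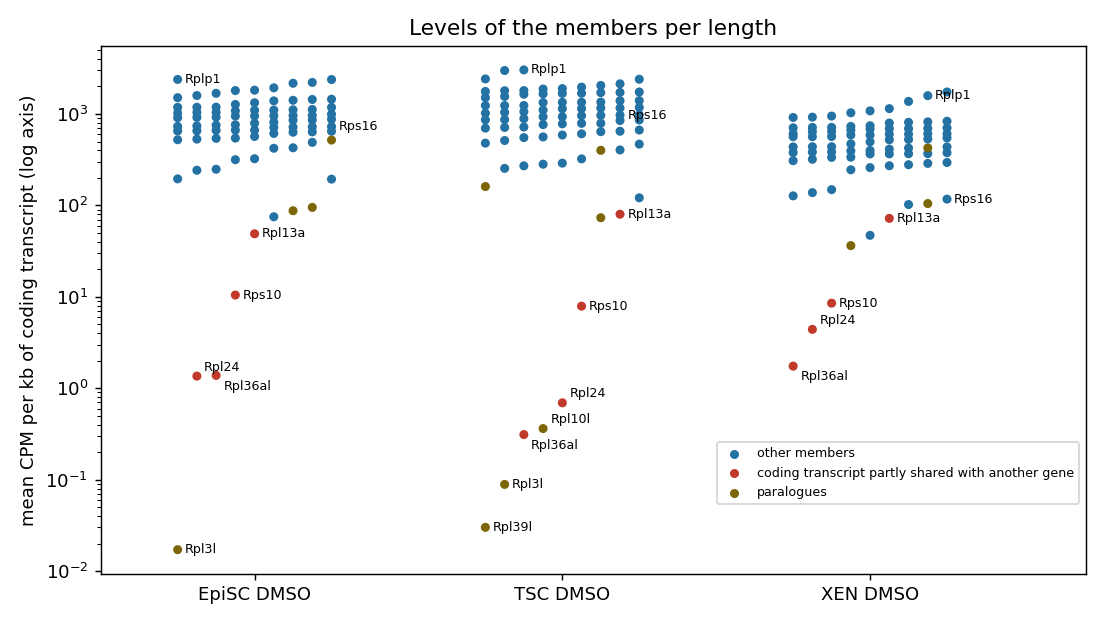
Mean level of each detected member in the DMSO groups of the 3 lines, in CPM per kilobase of coding transcript on a log axis; blue points are members without such overlap, red points the 4 members overlapped by another gene and brown points the other paralogues. Rpl24, Rpl36al and Rps10 lie far below the blue points in each line, and Rps16 lies at 117.2 in XEN.

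The 3 lines were treated to ask what loss of METTL3 activity does to their RNA, and the members changed little. No member passed the test in EpiSC, TSC or XEN alone (edgeR quasi-likelihood test, Benjamini-Hochberg adjusted p under 0.05 over 18430 genes). Of all genes, 1.28% were called higher and 0.402% lower in EpiSC, 0.836% higher and 0.13% lower in TSC, and 3.07% higher and 1.08% lower in XEN. At an unadjusted p under 0.05 stood 8 members in EpiSC, 2 in TSC and 0 in XEN. DESeq2 called 4 members in EpiSC (Rpl13a, Rpl15, Rps14 and Rps27a, all lower, beside 2.34% of all genes lower), 0 in TSC and 0 in XEN. A fit of each line's libraries alone, which estimates the spread from 2 against 2 libraries in EpiSC and TSC, called 30 members in EpiSC, all lower, beside 4321 of all 14800 genes in either direction and 14% lower. In TSC it called 20 members, 19 of them lower, beside 4378 of all 14515 genes in either direction and 13.9% lower, and in XEN 0 members, beside 25 of all 13118 genes. Without XEN DMSO replicate 2, which enters the shared estimate of the spread, 2 members were called in EpiSC (Rpl13a and Rps14, both lower, beside 1.39% of all genes lower).

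The fold changes of the members lay close together. Their median log2 fold change was −0.15 in EpiSC (from −0.72 to 0.19; below 0 in 69 of 82), −0.14 in TSC (from −0.30 to 1.37; below 0 in 78 of 82) and 0.01 in XEN (from −0.29 to 0.22; below 0 in 31 of 82). Over all genes tested the medians were 0 in each line, with 47.4%, 48.3% and 49.7% of genes below 0 in EpiSC, TSC and XEN. Large- and small-subunit genes had nearly the same medians, −0.15 and −0.15 in EpiSC, −0.15 and −0.14 in TSC, and 0.01 and 0.05 in XEN. In TSC all 32 small-subunit genes had a fold change below 0, between −0.30 and −0.03. The sign of the XEN median changed with the scaling (−0.004 with size factors in place of TMM) and with XEN DMSO replicate 2 left out (−0.10). The standard errors of single members had medians of 0.15 in EpiSC, 0.15 in TSC and 0.12 in XEN on the log2 scale over the 77 members that are not paralogues. They rest on a spread estimated over all 6 groups together. A single member's standard error was thus about the size of the median shifts in EpiSC and TSC, but it is not the error of a median over members.

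**Figure D3:**
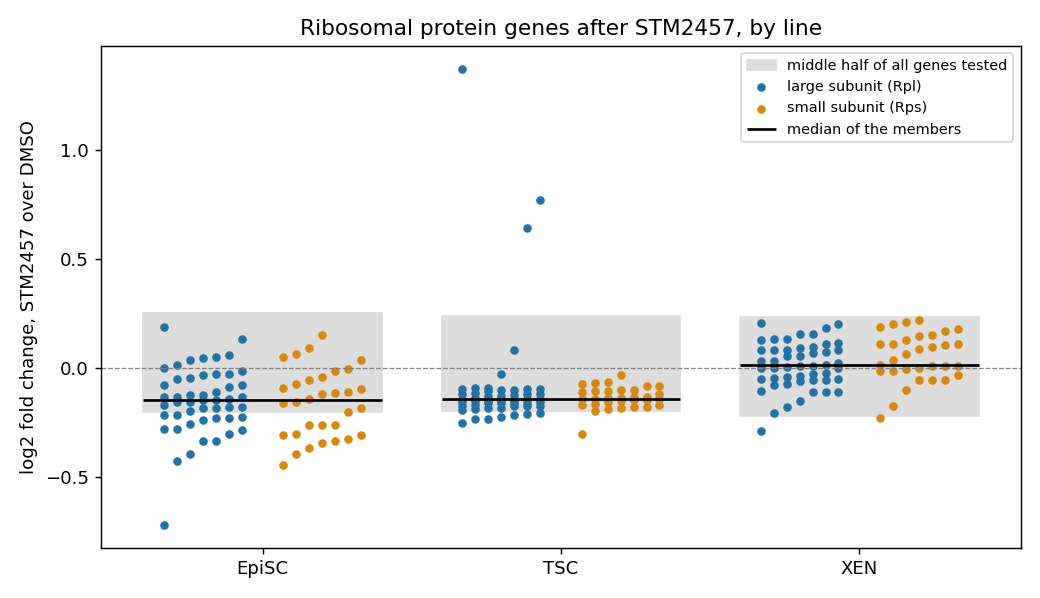
Log2 fold change of each of the 82 tested members, STM2457 over DMSO, by line; blue points are large-subunit genes, orange points small-subunit genes, black lines the members' median and grey boxes the span between the quartiles of all genes tested. The medians sit at −0.15 in EpiSC, −0.14 in TSC and 0.01 in XEN, and the 3 points above 0.5 in TSC are Rpl10l, Rpl24 and Rpl36al, each with 39 counts or fewer per library.

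Averaged over the 3 lines, 3 members fell and 0 rose, beside 5.62% of all genes called lower and 7.78% called higher. The 3 of 82 members did not exceed the share of all genes called lower. The median of the members was −0.09, against −0.003 over all genes, and 71 of 82 members were below 0. Rps27l, a paralogue of Rps27 induced by p53, had 230.4 and 219.7 CPM in STM2457-treated EpiSC, against 239 and 278.5 CPM in DMSO. In TSC it had 162.1 and 161.9 CPM with STM2457, against 191 and 208 CPM with DMSO. In XEN it had 196, 171.5 and 175.5 CPM with STM2457, against 253, 186 and 198 CPM with DMSO. The treated libraries lay below the DMSO libraries in EpiSC and TSC and overlapped them in XEN, and the mean change was −0.24 ± 0.07 (log2, SE; adjusted p = 0.0373, edgeR). Within each of the 3 same-numbered XEN pairs the STM2457 library was the lower, at −0.22 ± 0.08 with the block (adjusted p = 0.0634, edgeR).

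Rpl15, an early-assembling protein of the large subunit whose loss causes Diamond-Blackfan anaemia in humans, had 504 and 484 CPM in STM2457-treated EpiSC, against 621 and 625 CPM in DMSO. In TSC it had 550.2 and 538 CPM, against 620.3 and 620.4 CPM, and in XEN 478, 422 and 415 CPM, against 523, 419 and 472 CPM. Its mean change was −0.21 ± 0.06 (adjusted p = 0.0405, edgeR), again without overlap in EpiSC and TSC and with overlap in XEN. Rpl13a, the large-subunit protein known in human cells as part of a complex that silences interferon-response transcripts, had 39.3 and 36.9 CPM in STM2457-treated EpiSC, against 51.9 and 50.6 CPM in DMSO. In TSC it had 72.2 and 70.3 CPM, against 79.7 and 88.0 CPM, and in XEN 70.8, 76.1 and 85.1 CPM, against 76.2, 67.6 and 82.7 CPM. Its mean change was −0.21 ± 0.07 (adjusted p = 0.0424, edgeR), and it is among the overlapped members. The 3 calls turned on single libraries: without XEN DMSO replicate 2, 19 members were called lower, beside 7.94% of all genes, without XEN DMSO replicate 3 only Rps27l, beside 5.34% of all genes lower, and 0 without either TSC DMSO library, either TSC STM2457 library, either EpiSC STM2457 library or EpiSC DMSO replicate 2. With the replicate number as a block, which pairs the XEN libraries, 12 members fell, beside 12% of all genes called lower in that fit, among them the same 3 and Rps14 (−0.22 ± 0.05, adjusted p = 0.0023, edgeR). DESeq2 called 8 lower, beside 8.4% of all genes, and with library totals in place of TMM 0 were called.

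**Figure D4:**
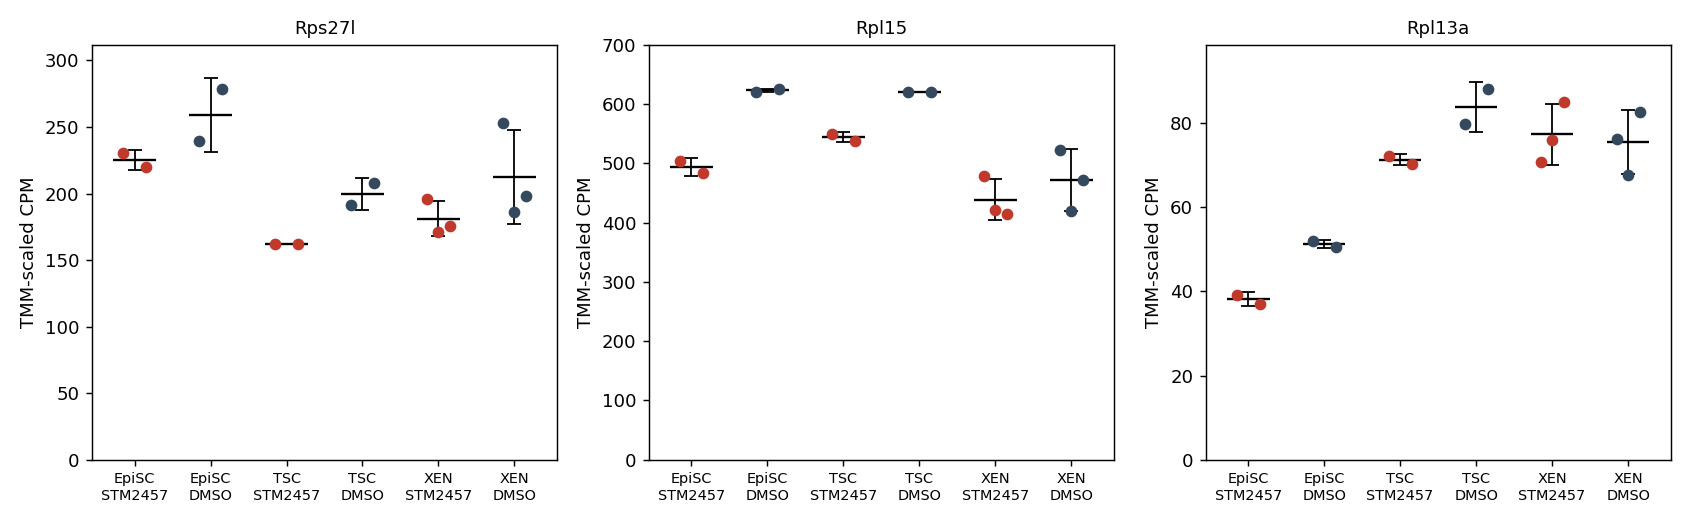
TMM-scaled CPM of Rps27l, Rpl15 and Rpl13a in every library, by line and treatment; points are libraries and bars mean ± SD. STM2457 libraries lie below DMSO libraries in EpiSC and TSC for all 3 genes and overlap them in XEN.

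In EpiSC the members with the smallest p-values were Rpl13a (−0.43 ± 0.12, adjusted p = 0.0862, edgeR), Rps14 (−0.45 ± 0.14, adjusted p = 0.13) and Rpl15 (−0.34 ± 0.12, adjusted p = 0.173), followed by Rpl22l1, the paralogue that RPL22 represses (−0.72 ± 0.25, adjusted p = 0.178). Rps14, which is lost in the human 5q- syndrome, had 521 and 527 CPM with STM2457, against 705 and 725 CPM with DMSO. Rpl22l1 had 32.9 and 30.9 CPM with STM2457, against 39.3 and 65.8 CPM with DMSO, so the DMSO libraries differed from each other by more than the lower of them differed from the treated libraries. The members of smallest p above 0 were Rps28 (0.15 ± 0.17) and Rpl35 (0.13 ± 0.17), neither past the test. In TSC the smallest p-values belonged to Rpl10l (1.37 ± 0.58, adjusted p = 0.339, edgeR) and Rps27l (−0.30 ± 0.14, adjusted p = 0.344). Rpl10l passed the filter on low counts only through its STM2457-treated TSC libraries. Its difference and its rank are therefore partly set by that filter and show no rise. Rpl10l, a retrogene that stands in for the X-linked Rpl10 during mouse male meiosis, had 19 and 22 counts in STM2457-treated TSC, against 7 and 8 counts in DMSO-treated TSC, and 0 counts in every EpiSC and XEN library. In XEN the smallest p-values were those of Rps27l (−0.23 ± 0.11, adjusted p = 0.312) below 0 and Rpl21 (0.18 ± 0.10, adjusted p = 0.3925) above 0.

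The effect of STM2457 was not shown to differ between lines for any member. The test of that difference called 0 members and 1 gene of all 18430 (0.00543%), DESeq2 called 0 members, and 2 members stood at an unadjusted p under 0.05. These were Rps27a, which encodes a ubiquitin fusion (EpiSC minus XEN −0.49 ± 0.16, adjusted p = 0.678 for that pair), and Rpl13a (−0.46 ± 0.16, adjusted p = 0.729).

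The 15 genes known to be mutated in Diamond-Blackfan anaemia had median log2 fold changes of −0.23 in EpiSC, −0.13 in TSC and 0.05 in XEN. In the mean of the lines 1 of them, Rpl15, was called lower, beside 5.62% of all genes. The 3 stalk genes had medians of −0.18, −0.11 and 0.13 in EpiSC, TSC and XEN, with 0 called. Rpl5 and Rpl11, which with the 5S RNA bind and inhibit MDM2, had −0.23 and −0.13 in EpiSC as lowest and highest values, −0.19 and −0.12 in TSC, and 0.05 and 0.05 in XEN, with 0 called. The 4 X-linked members, Rpl10, Rpl36a, Rpl39 and Rps4x, had medians of −0.10, −0.09 and 0.02, with 0 called. At an unadjusted p under 0.05 none of the stalk, 5S or X-linked genes stood in any line by edgeR, and none was called by DESeq2 in a single line. The 13 members with separately studied roles beyond the ribosome's core work had medians of −0.05, −0.14 and 0.03 in EpiSC, TSC and XEN. Of these 13, 1 was called lower in the mean of the lines, Rpl13a, beside the same 5.62% of all genes.

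Members share short, finely split transcripts. The coding transcripts of the 82 tested members had a median length of 886.5 bases, against 3002 bases for all 14330 protein-coding genes tested, 5.12 exon junctions per kilobase against 2.93, a longest exon of 305 bases against 1394, and 3.61 GGAC sites per kilobase, the core at which METTL3 often methylates, against 4.25. Other short genes are the nearest comparison. The 827 protein-coding genes of up to 1000 bases that are not members had median log2 fold changes of −0.08 in EpiSC, −0.13 in TSC and 0 in XEN, beside −0.15, −0.14 and 0.01 for the members. Genes in the top quartile of junctions per kilobase had −0.08 in EpiSC, −0.11 in TSC and −0.07 in XEN, and genes in the bottom quartile had 0.13, 0.14 and 0.10. Across the 82 members the log2 fold change followed neither length, junctions nor GGAC density, with Spearman's rho between −0.13 and 0.01 over the 3 lines.

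In DMSO-treated cells most members were higher in EpiSC and in TSC than in XEN. In EpiSC against XEN 62 members were higher and 4 lower of 82 tested, beside 36.6% and 35.1% of all genes, and their median log2 fold change was 0.68, against 0.02 over all genes. In TSC against XEN 70 were higher and 2 lower, beside 36.5% and 36% of all genes, with a median of 1.02, against 0 over all genes. These comparisons share the 3 XEN DMSO libraries. Among the 70 is Rpl10l, which passed the filter on low counts only through its STM2457-treated TSC libraries, so its call is partly set by that filter. With library totals in place of TMM the medians were 0.98 and 1.29, and the medians of all genes moved to 0.32 and 0.26. Protein-coding genes of up to 1000 bases that are not members had medians of 0.13 in EpiSC against XEN and 0.12 in TSC against XEN. Other sets of protein-coding genes stood higher in both comparisons, in the same order. Genes of 66 to 1922 bases had 0.387 and 0.404, and genes with 4.647 to 24.69 junctions per kilobase had 0.287 and 0.370. All 14330 protein-coding genes tested had 0.231 and 0.205. The members' medians of 0.68 and 1.02 lay above each of these values. The high mitochondrial ribosomal RNA and histone shares of the XEN libraries go with the line, so their part cannot be told apart from it.

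Rps16, a small-subunit protein near the decoding site, differed most among well-counted members. It had 852 and 764.5 CPM in EpiSC and 1059 and 1096 CPM in TSC, against 122, 73.5 and 195 CPM in XEN, all with DMSO. The difference was 6.20-fold in EpiSC (log2 2.63 ± 0.66, adjusted p = 0.00572, edgeR) and 8.26-fold in TSC (3.05 ± 0.66, adjusted p = 0.00264). XEN libraries given STM2457 had 33.3, 125 and 252 CPM, so the XEN libraries also spread more widely among themselves than those of the other lines. Rps4x had 2126 and 2193 CPM in EpiSC and 2215 and 2503 CPM in TSC, against 711, 521 and 717 CPM in XEN (1.73 ± 0.13 and 1.86 ± 0.13, both called). Rpl28, a large-subunit protein found in animals and plants but not in budding yeast, had 1164 and 1138 CPM in TSC, against 292, 257 and 311 CPM in XEN, and was 4.02-fold higher (2.01 ± 0.11, adjusted p = 4.77e-11, edgeR). Rpl26, which in human cells binds p53 messenger RNA, was 3.87-fold higher and Rps6, the substrate of S6 kinase, 3.28-fold higher in TSC than in XEN. In EpiSC the largest differences after Rps16 were Rpl10 (1.78 ± 0.12), a protein that joins late in assembly of the large subunit, Rps4x, Rps26 (1.69 ± 0.13), which lies at the messenger RNA exit, Rpl36a (1.599 ± 0.13) and Rpl34 (1.57 ± 0.13).

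The few members that were lower than in XEN each carry a limit. Rpl24 was lower in EpiSC (−1.68 ± 0.41) and in TSC (−2.64 ± 0.45) and Rpl36al in TSC (−2.47 ± 0.55), at 32 counts or fewer per library for Rpl24 and 39 or fewer for Rpl36al. Rpl13a was lower in EpiSC (−0.56 ± 0.11, adjusted p = 0.000288, edgeR) and is overlapped as well. Rps29 had 417 and 395 CPM in EpiSC, against 722, 461 and 854 CPM in XEN (−0.74 ± 0.25, adjusted p = 0.0185, edgeR), and the call was lost without XEN DMSO replicate 3 (adjusted p = 0.0611) and with library totals (adjusted p = 0.0944). Rpl31 behaved likewise, with −0.42 ± 0.14 and adjusted p = 0.0114 by edgeR, against 0.0521 without that library and 0.384 with library totals. In TSC against XEN the 10 members not called were Rpl13a, Rpl30, Rpl31, Rpl35a, Rpl37a, Rpl39, Rps10, Rps24, Rps27l and Rps29.

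**Figure D5:**
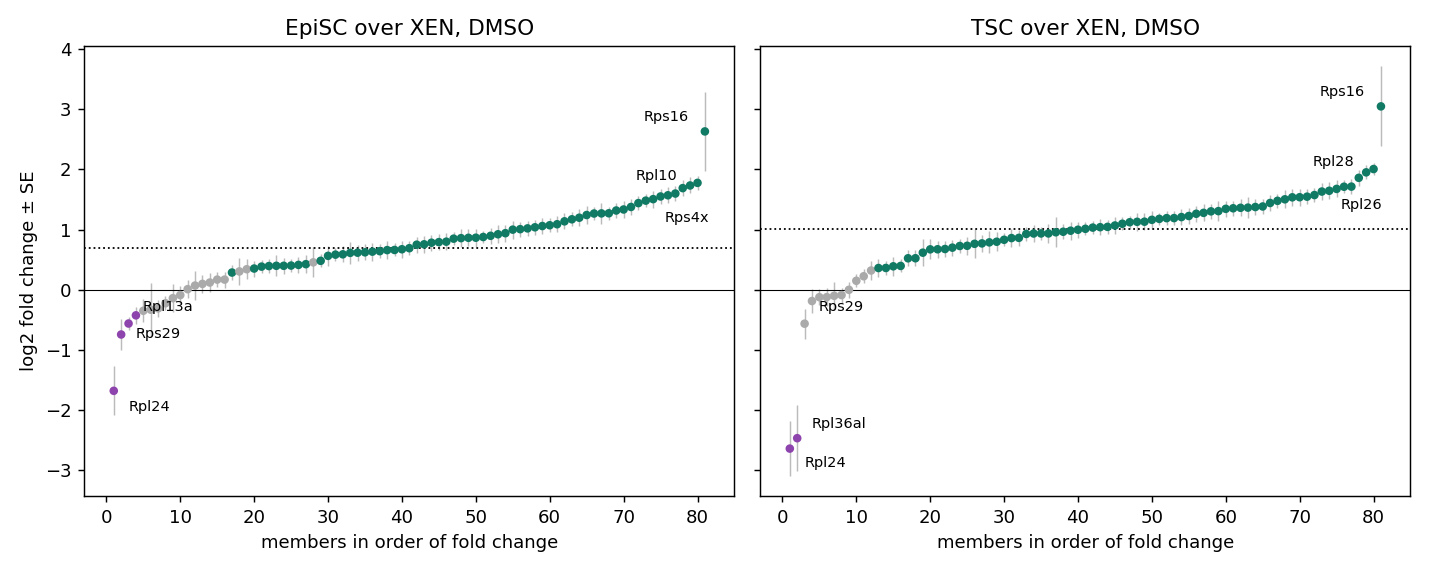
Log2 fold change ± SE of 81 members between DMSO-treated lines, EpiSC over XEN on the left and TSC over XEN on the right, in ascending order; green points were called higher, purple points lower and grey points not called, the dotted line is the median and Rpl10l, at 0 counts in EpiSC and XEN, is left out. Most members lie above 0 in both panels and Rps16 lies farthest above, at 2.63 and 3.05.

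EpiSC and TSC differed less. In EpiSC against TSC 7 members were higher and 35 lower, beside 27.4% and 27% of all genes, with a median of −0.29, against 0 over all genes. The 35 include Rpl10l, whose call is again partly set by the filter on low counts. Lower in EpiSC were Rps18, with 524 and 546.5 CPM in EpiSC, against 1011 and 1089 CPM in TSC (−0.97 ± 0.17), Rpl12, a stalk-base protein (−0.92 ± 0.16), Rpl23 (−0.91 ± 0.19), a binder of MDM2, Rpl22l1 (−0.76 ± 0.24), Rpl23a (−0.73 ± 0.12), which lies at the peptide exit of the large subunit, and Rps27a (−0.71 ± 0.12). Higher in EpiSC were Rpl34 (527 and 541 CPM in EpiSC, against 282 and 302 CPM in TSC; 0.87 ± 0.15), Rpl10 (1568 and 1737 CPM, against 962 and 1030 CPM; 0.73 ± 0.13), Rps3a1 (0.64 ± 0.14), Rpl41 (0.61 ± 0.15) and Rps26 (0.46 ± 0.14), as well as Rps27l (0.37 ± 0.14) and, at its low counts, Rpl36al. Without EpiSC DMSO replicate 1, 26 members were called, beside 43.8% of all genes, and Rpl41 and Rps26 were not among them (adjusted p = 0.0700 and 0.12, edgeR). Without TSC DMSO replicate 2, 26 were called as well, beside 43.5% of all genes, while a fit of these 2 lines alone called 69, beside 75.7% of all genes. Of the 42 calls, 19 held under all 20 alternatives, compared with 67 of 72 in TSC against XEN and 55 of 66 in EpiSC against XEN.

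All 4 X-linked members were called higher in EpiSC than in XEN, beside 62 of 82 members and 36.6% of all genes. Their median was 1.67, against 0.68 for all members. In TSC against XEN 3 of the 4 were called higher, beside 70 of 82 members and 36.5% of all genes. The exception was Rpl39, the small protein in the peptide exit tunnel (0.32 ± 0.15, adjusted p = 0.0677, edgeR). In EpiSC against TSC 1 of the 4, Rpl10, was called higher, beside 7 of 82 members and 27.4% of all genes. Among paralogues, Rpl10l was detected in TSC only: its 15 counts over the DMSO libraries of TSC are at least 5.10-fold higher than in EpiSC and at least 2.56-fold higher than in XEN, taking 3 counts over each group as the floor. Because Rpl10l was tested only through its STM2457-treated TSC libraries, these folds describe its counts and carry no test. Rpl7l1, a paralogue of Rpl7 known from ribosome assembly in human cells, was higher in EpiSC and in TSC than in XEN, with 235 and 221 CPM in EpiSC and 186 and 196.5 CPM in TSC, against 106, 80.6 and 97.2 CPM in XEN. Counts of Rps27l amounted to 53.4% of those of Rps27 in EpiSC, 29.5% in TSC and 76.7% in XEN on average, with SDs of 8.27, 2.82 and 14.15 percentage points over the DMSO libraries. Rps27 shares 98.7% of its 50-base words with other transcripts, and how reads from them were treated was not tested.

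Other genes of the pathway were examined in lists. The first list held 18 messenger RNAs known for a TOP motif outside the ribosome. In EpiSC against XEN 13 were higher and 0 lower, beside 36.6% and 35.1% of all genes. In TSC against XEN 14 were higher and 0 lower, beside 36.5% and 36%. In EpiSC against TSC 5 were higher and 2 lower, beside 27.4% and 27%, so the 5 stood near the share over all genes. Nap1l1, a histone chaperone, was higher than in XEN by 2.21 ± 0.11 in EpiSC and 2.15 ± 0.11 in TSC on the log2 scale, and Eef2, the elongation factor that moves the ribosome along, by 0.84 ± 0.10 and 1.04 ± 0.10. Rack1, a small-subunit scaffold, had 1624 ± 3.28 CPM in EpiSC and 3200 ± 153 CPM in TSC (SD, n = 2 each; −0.98 ± 0.14). For STM2457 edgeR called 0 genes of the list in each line, with 0, 1 and 1 at an unadjusted p under 0.05 in EpiSC, TSC and XEN. In the mean of the lines 1 was called lower, beside 5.62% of all genes. It was Btf3 (−0.19 ± 0.06, adjusted p = 0.0476, edgeR), the beta subunit of the nascent polypeptide-associated complex. All 18 were below 0 in the mean, with a median of −0.10.

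Of 21 genes of mTORC1, LARP1 and MYC control, 2 rose and 2 fell in the mean of the lines, near the 7.78% and 5.62% of all genes. Larp1 had 889 and 907 CPM in STM2457-treated EpiSC, against 793 and 714.5 CPM in DMSO. In TSC it had 587.5 and 581 CPM, against 465 and 429 CPM, and in XEN 269, 267 and 231 CPM, against 194, 232 and 211 CPM. It rose by 0.30 ± 0.07 in the mean (adjusted p = 0.0054, edgeR), with overlap in XEN only. Max, the partner of MYC, rose by 0.25 ± 0.06, while Rheb, the activator of mTORC1, changed by −0.34 ± 0.08 and Tsc2, which switches Rheb off, by −0.21 ± 0.06, all 3 called by edgeR. Within a single line 1 gene of the list was called, Mycn in XEN (0.71 ± 0.18, adjusted p = 0.0331, edgeR), beside 3.07% of all genes higher there. Between lines Larp1 was also higher in EpiSC (1.83 ± 0.11) and in TSC (1.08 ± 0.11) than in XEN.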

How the data were processed

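RNA was sequenced from 14 libraries with a TruSeq stranded total RNA kit, per the labels' protocols. Reads were handled with FastQC, Trim Galore, STAR and featureCounts on GRCm39, per the submitters' processing notes; versions, the strand setting and the treatment of reads shared by genes are not given in the sources used here. The authors deposited whole-number counts per gene for every library, which were used as deposited. Gene names, biotypes and transcripts were taken by Ensembl identifier from GENCODE M21 (GRCm38), and 3281 of 55416 identifiers stayed unnamed. Its exon coordinates gave the transcript lengths and the overlaps between genes, whereas the reads had been counted on GRCm39. Start windows and their positions are those of the RefSeq table of GRCm38.p6.

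The test was edgeR 4.0.16 (R 4.3.3, limma 3.58.1): counts were scaled by TMM, genes passed filterByExpr (at least 10 counts per library in a group's worth of libraries and 15 in all), and robust quasi-likelihood models were fitted over all 14 libraries in 6 groups, with Benjamini-Hochberg adjustment over 18430 genes and calls at an adjusted p under 0.05. It was tested on simulated counts. Log2 fold changes are STM2457 over DMSO, or the first named line over the second. Levels per length used the principal coding transcript of each gene, a choice made after seeing the data in place of the union of exons. Libraries held 6826496 to 21097380 counts, and each arm held 2 or 3 libraries, which limits precision more than depth does. Floors of 3 counts cover counting error only.

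Alternatives were DESeq2 1.42.0, other scalings, no filter, fits of the compared lines alone, leaving out each library, and the replicate number as a block. In XEN the numbers paired the libraries: residuals of same-numbered libraries correlated with r = 0.22, 0.376 and 0.337, whereas other pairs had r of −0.29 to −0.0196. In TSC and EpiSC no pairing was seen. Leaving out the 4 overlapped members was added after seeing the data.

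The named members were those called or of smallest p, up to 4 per direction, for STM2457, the 6 called of largest change per direction between lines, the 4 highest and lowest per length, and the lists of roles. Members and lists were chosen with earlier results of these data known. Protein sequences were not used here.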

Additional observations from a re-analysis of the deposited data

How the results depend on the processing

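The median in XEN, 0.01 and without a call, ran from −0.10 to 0.12 over the alternatives. A tally of the named members' results did not count every leave-one-out fit. In it 485 results kept their direction and their side of the threshold, 15 lost the call, 20 gained it and 0 reversed. Leave-one-out fits lost further calls in the mean of the lines. For STM2457 in EpiSC, where 0 members were called, no filter gave 2, DESeq2 4, and a fit of the line alone 30, and leaving out single libraries gave 0 to 2. In TSC the fit of the line alone gave 20. In the mean of the lines, where 3 were called, library totals gave 0, no filter 6 and DESeq2 8, and leaving out single libraries 0 to 19. With the replicate block the calls were 12 in the mean, 5 in EpiSC, 1 in TSC (Rps27l) and 0 in XEN; the block changed no call of the difference between lines, and in EpiSC and TSC the numbers are shared without evidence of pairing, as the correlations of same-numbered libraries were −0.012 and −0.00269. The EpiSC median ran from −0.20 to −0.14 over the leave-one-out fits. Library totals moved the median to 0.98 in EpiSC against XEN and to 1.29 in TSC against XEN. In EpiSC against TSC the lines compared alone gave 69 calls and leaving out single libraries 26 to 54. The cause of these moves was not tested. With 2 or 3 libraries per arm, which members passed depended on how the spread was estimated.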

Other observations

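Processed pseudogenes of the members carried patterns of their own. Of 300 genes of the table named as ribosomal protein pseudogenes, 191 had a count, and together they took 0.0902% to 0.232% of the counts of a library. Rps2-ps13, the highest in summed count, had 10810 and 13233 counts in STM2457-treated EpiSC, against 12166 and 15736 counts in DMSO-treated EpiSC, and at most 9 counts in any TSC or XEN library. Rpsa-ps10, singled out after its values were seen, had 4642 and 5239 counts in STM2457-treated TSC, against 5097 and 5353 counts in DMSO-treated TSC. It had 62 to 119 counts in EpiSC and 17 to 37 counts in XEN. The next highest, Rpl14-ps1, Rps26-ps1 and Rps19-ps6, had counts in all 14 libraries.

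Rps4l, a relative of the X-linked Rps4x that GENCODE M21 lists as a transcribed processed pseudogene and that is therefore no member, was a TSC transcript in these libraries. It had 334.2 and 333.8 CPM in STM2457-treated TSC, against 328.3 and 340.5 CPM in DMSO-treated TSC, 0 counts in every EpiSC library and at most 0.383 CPM in XEN. How reads shared between a pseudogene and its parent gene were assigned was not tested.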
